A study of Mus musculus with 12 samples.

Results

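The choroid plexus marker genes Otx2, Ttr, Kl, Folr1, Aqp1 and Clic6 were followed across 12 arrays of hypothalamic RNA from male ICR mice, an outbred strain. The array held a probe for all 6 genes, out of 28303 gene names in all, and these were read as every non-control probe whose gene name in the array files was one of the symbols, 9 probes in total. Mice were 3 weeks old at the start, drank from a pair of water tubes until day 5, and then had either 2 tubes of deionized water (water-only) or 1 tube of water and 1 of alcohol solution at 5% or 10%, with free choice between them. Each array held RNA pooled from 1 to 3 mice, and by the labels 3 arrays each came from water-only mice, low drinkers, early high drinkers and late high drinkers, killed on day 57 by the study's design text or day 51 by the treatment label. The labels give neither the concentration nor the number of mice of a pool. The study's supplement lists pools that mix both concentrations, and more mice in each pool of less than of more drinking. Its pool names are not in the labels, so concentration was not mapped to arrays. By the paper's text, water pools held as many mice each as the pools of less drinking. Pool size therefore cannot be told apart from drinking where high drinkers are compared with low drinkers or with water. In alcohol against water, pool size differs in part between the groups. Each pool is 1 sample.

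The choroid plexus is the folded tissue inside the brain ventricles that makes cerebrospinal fluid. Its epithelium carries water channels, ion transporters and vitamin carriers, and secretes the thyroid hormone carrier transthyretin in large amounts. Part of it hangs from the roof of the third ventricle, the lower walls and floor of which are formed by the hypothalamus. In RNA of a whole tissue, fewer cells of a type and less RNA per cell cannot be told apart.

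The values below are log2 signal intensities of the authors' scanner files minus the 75th percentile of the same array, so that 0 is the brightness of that percentile. Levels of different probes are not compared, because probes differ in brightness for equal RNA. Arrays came 4 to a slide: all water pools shared slide 1 with pool 1 of the low drinkers, the remaining 2 low drinker pools shared slide 2 with pools 1 and 2 of the early high drinkers, and all late high drinkers shared slide 3 with early high pool 3. Apart from low drinker pool 1, slide and alcohol cannot be told apart. By the flag of the scanner software, 67.0% to 79.3% of the spots of each array stood well above background, and none was saturated. All 9 hypothalamic neuron genes that were matched, such as Hcrt and Oxt, were well above background on all 12 arrays.

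Otx2 encodes the homeodomain transcription factor that specifies the choroid plexus epithelium and is kept on in it. Its probe lies at position 49278096 to 49278155 of chromosome 14 (mm9, minus strand) and was spotted 10 times on each array, so the spread between spots of 1 array can be read directly. It was well above background on all 12 arrays. The log2 level was -2.75, -3.07 and -3.10 in the water pools, -3.15, -3.11 and -2.95 in the low drinkers, -3.40, -3.20 and -2.79 in the early high drinkers, and -2.89, -2.98 and -2.76 in the late high drinkers. The 4 groups overlapped, and the lowest array was early high drinker pool 1. The SD between the 10 spots lay between 0.0374 and 0.259 log2, and the standard error of an array's mean between 0.0118 and 0.0820, and the SD over the 12 arrays was 0.197. Spots of 1 array share labeling and hybridization, so their spread does not hold the technical error between arrays.

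Otx2 is known to bind the letters TAATCC, or GGATTA on the opposite strand, and these were searched in the 250 bases before each transcription start that the RefSeq promoter table (GRCm38.p6) gives for the members. The table held 4 starts for Otx2, 1 for Kl and 1 for Aqp1, and entries were not found for the other 3 genes. A match was found before 1 start of Otx2 and before none of Kl or Aqp1, while 6.25% of all 32851 windows held one. The 30 bases around the match are shown because they hold the letters of the factor's own motif in its own gene, at chr14:48665303-48665332 (GRCm38.p6, minus strand), with the match in capitals.
Otx2 stretch: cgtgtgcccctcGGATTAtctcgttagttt

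Kl encodes klotho, a membrane and secreted protein of the choroid plexus and kidney that acts as the co-receptor for the hormone FGF23. Its probe of the membrane form, near the end of the transcript (chromosome 5, 151795712 to 151795771, mm9), was well above background on all 12 arrays. The log2 level was -2.03, -2.15 and -2.46 in water pools, -1.90, -2.38 and -2.18 in low drinkers, -2.37, -2.03 and -2.33 in early high drinkers, and -2.26, -2.37 and -2.41 in late high drinkers. Low drinker pool 1 was highest and water pool 3 lowest, a 1.47-fold span, and the groups overlapped. The other Kl probe, which the files place at 151789486 to 151789545 under another transcript, was well above background on none of the 12 arrays, passed the filters on 1 array and was not tested.

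Ttr encodes transthyretin, the carrier of thyroxine and retinol-binding protein in cerebrospinal fluid. It had 1 probe (chromosome 18, 20832612 to 20832672, mm9), well above background on 11 of 12 arrays. Its background-corrected intensity was 830, 339 and 31.7 in water pools 1 to 3, and on the log2 scale those pools were at -1.06, -2.22 and -5.80. Low drinkers were at -1.74, -4.30 and -3.75, early high drinkers at -4.00, -4.37 and -6.36, and late high drinkers at -5.35, -4.50 and -2.73. The last value of the early high drinkers, pool 3, was not well above background. Ttr therefore spanned 26.7-fold from water pool 1 to water pool 3, both of them water-only samples. The range of the water pools held the values of all other arrays except early high drinker pool 3.

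Folr1 encodes the folate receptor that carries folate into cerebrospinal fluid. Its brighter probe (chromosome 7, 109006929 to 109006988, mm9, minus strand) was well above background on all 12 arrays. The log2 level was -2.16, -2.29 and -2.79 in water pools, -2.36, -2.68 and -2.40 in low drinkers, -2.50, -2.90 and -3.01 in early high drinkers, and -2.63, -2.95 and -2.80 in late high drinkers. As for Ttr, water pool 1 was the highest and early high drinker pool 3 the lowest, and the groups overlapped. The dimmer probe, toward the start of the same transcript (109016972 to 109017031), was well above background on 6 arrays and lay between -5.83 and -4.43.

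Aqp1 encodes the water channel of the epithelium's apical membrane. Its only probe (chromosome 6, 55298480 to 55298539, mm9) was dim, with intensities between 23.3 and 65.7, and was well above background on 8 of 12 arrays. The log2 level was -4.92, -5.28 and -5.35 in water pools, -4.72, -4.94 and -5.71 in low drinkers, -5.89, -6.13 and -5.45 in early high drinkers, and -5.71, -5.70 and -5.72 in late high drinkers. Early high drinkers lay below all 3 water pools, beside 17.7% of all probes whose groups did not overlap in that comparison. Late high drinkers did so too, beside 26.3%. Low drinkers overlapped with water pools and with high drinkers. Of the arrays that were not well above background, 2 were low drinkers, 1 was an early and 1 a late high drinker.

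Clic6 encodes an intracellular chloride channel protein that is strong in this epithelium. Its brighter probe (chromosome 16, 92541363 to 92541422, mm9) spanned only 1.33-fold over the 12 arrays. The log2 level was 1.16, 1.11 and 1.10 in water pools, 1.22, 1.22 and 1.19 in low drinkers, 1.21, 1.28 and 1.00 in early high drinkers, and 1.05, 0.87 and 0.89 in late high drinkers. All low drinkers lay above, and all late high drinkers below, the water pools. Of all probes, 10.8% did not overlap between low drinkers and water, 17.7% between early high drinkers and water, and 26.3% between late high drinkers and water. The dimmer Clic6 probe (92540395 to 92540454), well above background on all 12 arrays, was at -2.21, -2.12 and -2.18 in water pools, -1.77, -1.65 and -1.92 in low drinkers, -1.88, -1.80 and -1.90 in early high drinkers, and -1.99, -2.35 and -2.29 in late high drinkers. On this probe low and early high drinkers lay above all water pools, while late high drinkers overlapped with them, so the probes of Clic6 differ in where the early high drinkers sit.

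**Figure D1:**
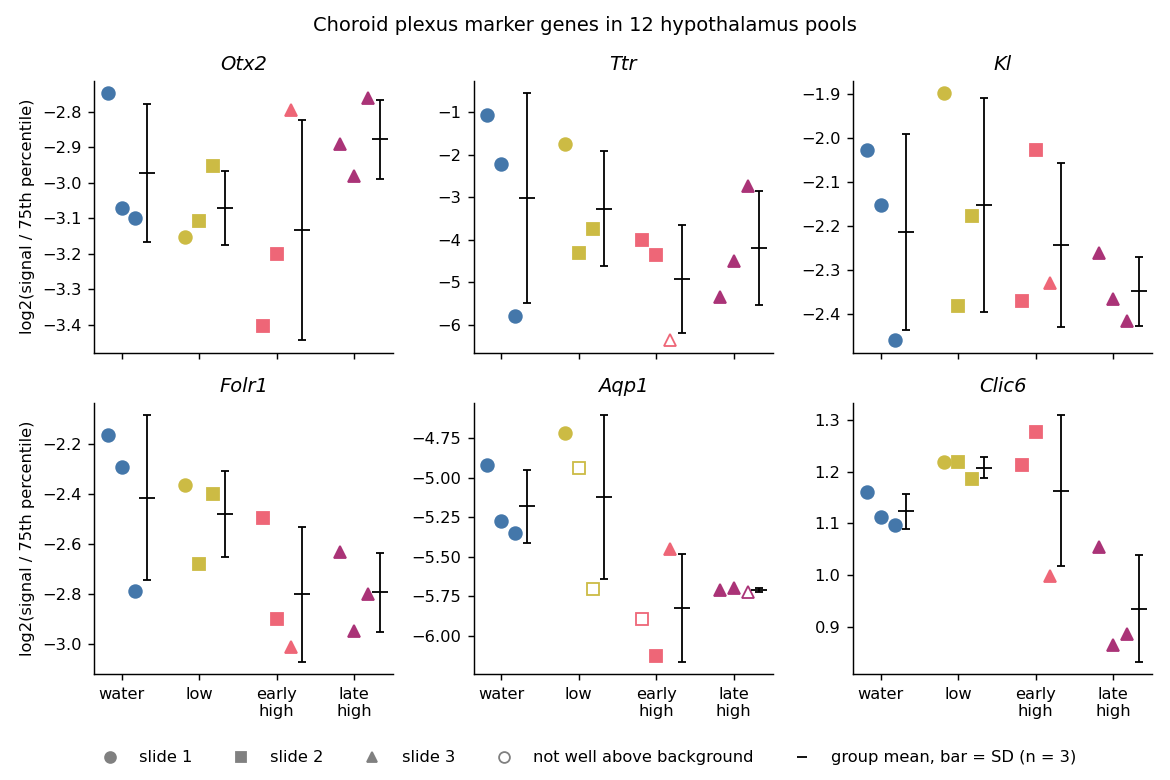
Log2 signal of each gene's brighter or only probe, scaled to the array's 75th percentile, in the 3 pools of each drinking group (x axis). Marker shape gives the slide, open markers were not well above background, and black bars show the group mean with SD (n = 3). Ttr spans from -6.36 to -1.06 with the 3 water pools spread over most of it, whereas Clic6 stays between 0.87 and 1.28.

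The study asked how the hypothalamus of mice that drank alcohol from adolescence differed from that of mice on water. For none of the 6 genes was the adjusted p (limma) under 0.05 when the 9 alcohol pools were compared with the 3 water pools, and the same held for all probes of the array (0% of 32376 tested passed). All 6 point estimates were below 0, with a median of -0.17 on the log2 scale against 0.03 over all probes, of which 13072 were below 0 and 19304 above. A one-sided count was also seen in other lists, in either direction. Below 0 were 3 of 3 blood genes (median -0.31) and 5 of 5 anterior pituitary genes (median -0.33). Above 0 were 10 of 10 genes of leptomeninges and fibroblasts (median 0.16) and 8 of 9 hypothalamic neuron genes (median 0.15). Of 27 other choroid plexus genes, 12 were below 0 and 15 above. None of the 6 reached an unadjusted p of 0.05, against 5.53% of all probes, and the groups overlapped for all 6, against 1.94% of probes whose groups did not.

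Ttr had the largest estimate, a mean of -4.12 ± 1.35 (SD, n = 9) with alcohol and -3.03 ± 2.47 (SD, n = 3) with water. The difference of -1.10 (SE 1.01, adjusted p = 0.845 by limma) had a 95% confidence interval from -3.30 to 1.11, so neither a fall of this size nor a rise was resolved with 3 water pools. In 7 of 9 alcohol pools Ttr was below the water mean. The size depended on single water pools: the difference was -2.48 without water pool 3, -0.69 without water pool 2 and -0.11 without water pool 1, and it was -0.48 with slide as a random block. For Ttr the exact permutation test, which ran through the 220 possible sets of 3 arrays, gave a two-sided p of 0.341, where the smallest possible value is 0.00455.

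Folr1 differed by -0.28 (SE 0.16, adjusted p = 0.819), with a mean of -2.69 ± 0.24 (SD, n = 9) in alcohol pools and -2.41 ± 0.33 (SD, n = 3) in water pools. Aqp1 differed by -0.37 (SE 0.26, adjusted p = 0.821). For both, 7 of 9 alcohol pools were below the water mean, and the exact permutation p-values, two-sided, were 0.136 and 0.209. Both depended on single arrays. The difference of Folr1 was -0.46 without water pool 3 (exact permutation p = 0.0182 over 55 ways) and -0.15 without water pool 1 (exact permutation p = 0.509). That of Aqp1 was -0.48 without low drinker pool 1 (exact permutation p = 0.0485 over 165 ways) and -0.24 without water pool 1 (exact permutation p = 0.509). With another processing that of Aqp1 was -0.05 (normexp background correction), -0.70 (quantile normalization) or -0.16 (slide as a random block).

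Otx2, Kl and Clic6 had differences of -0.05 (SE 0.13), -0.03 (SE 0.12) and -0.02 (SE 0.09). Their 95% confidence intervals ran from -0.34 to 0.23 for Otx2, from -0.30 to 0.23 for Kl and from -0.22 to 0.18 for Clic6. These estimates were smaller than the SD over the 9 alcohol pools, which was 0.21 for Otx2, 0.18 for Kl and 0.16 for Clic6. The dimmer probes of Folr1 and Clic6 had estimates of the opposite sign, 0.06 (SE 0.25) and 0.22 (SE 0.13), with adjusted p of 0.967 and 0.819 in limma.

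The only slide with both treatments was slide 1, where the single alcohol array, low drinker pool 1, can be set against the 3 water pools. On it Ttr was higher by 1.29, Aqp1 by 0.46, Kl by 0.31, Clic6 by 0.10 and Folr1 by 0.05 than the mean of the water pools, and Otx2 was lower, at -0.18. For 5 of the 6 genes the sign was thus opposite to that over all arrays, on 1 alcohol array and with no test. Slides accounted for 29.4% of the variation of Ttr over the 12 arrays, 24.3% of that of Kl, 44.7% of that of Otx2, 46.9% of that of Folr1, 45.7% of that of Aqp1 and 80.6% of that of Clic6. The part of the slide in these differences was not tested.

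The labels also divide the alcohol pools by drinking, and each group of 3 was compared with water in a fit with a mean for each of the 4 groups. With low drinkers, 0 of the 6 genes passed the adjusted p and 0 the unadjusted p of 0.05, against 0.218% and 9.08% of 31622 probes. Clic6 was 0.08 higher (SE 0.08, adjusted p = 0.828) and the other 5 genes lay between -0.24 for Ttr and 0.06 for Kl. The sign of Ttr turned with single arrays, from -1.62 without water pool 3 to 0.75 without water pool 1, with 0.16 without water pool 2 and 0.28 without low drinker pool 2, and it was 1.29 with a fixed slide block. Clic6 was the only gene whose low drinkers and water pools did not overlap, as held for 10.8% of all probes. Its dimmer probe differed by 0.39 (SE 0.10, unadjusted p = 0.00293), but its adjusted p was 0.295, and on slide 1 alone low drinker pool 1 was 0.40 above the water mean.

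In early high drinkers 0 of the 6 genes passed the adjusted p, as for all probes (0%). Aqp1 alone passed the unadjusted p, against 4.7% of probes. It differed by -0.64 (SE 0.25, unadjusted p = 0.0275, adjusted p = 0.890), with a mean of -5.83 ± 0.34 (SD, n = 3) against -5.18 ± 0.23 in water. Its groups did not overlap, as was so for 17.7% of probes, and 1 of the 3 early high arrays was not well above background. The difference of Aqp1 was -0.13 with normexp background correction and -0.23 with a fixed slide block. The dimmer Clic6 probe, on which the groups did not overlap, differed by 0.31 (SE 0.10, unadjusted p = 0.0107, adjusted p = 0.890). Ttr differed by -1.88 (SE 1.25), and by -1.16 without early high drinker pool 3, -0.90 without water pool 1 and -3.27 without water pool 3. Folr1 differed by -0.39 (SE 0.18), Otx2 by -0.16 (SE 0.15), Kl by -0.03 and Clic6 by 0.04.

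In late high drinkers again 0 of the 6 genes and 0% of probes passed the adjusted p. Clic6 differed by -0.19 (SE 0.08, unadjusted p = 0.0401, adjusted p = 0.289), 1 gene of 6 against 15.9% of probes at that threshold. This difference was -0.06 without scaling and in the authors' table, and -0.04 on the dimmer probe, where the groups overlapped (unadjusted p = 0.697, adjusted p = 0.884). Clic6 and Aqp1 did not overlap with water, 2 of 6 against 26.3% of probes. Aqp1 differed by -0.53 (SE 0.25), Folr1 by -0.38 (SE 0.18) and Kl by -0.13 (SE 0.15), and Otx2 was at 0.09 (SE 0.15). Ttr differed by -1.17 (SE 1.25), and by -0.19 without water pool 1 and -2.55 without water pool 3. Late high drinkers were all on slide 3 and water pools on slide 1. The 3 comparisons with water share the same 3 water pools.

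High drinkers of both kinds were set against low drinkers. Here 0 of 6 genes passed the adjusted p, against 0.0221% of probes, and Aqp1 and Clic6 passed the unadjusted p, 2 of 6 against 14.7%. Aqp1 differed by -0.64 (SE 0.22, unadjusted p = 0.0139, adjusted p = 0.253) and was in 6 of 6 high drinker pools below the low drinker mean, but the difference was -0.01 with quantile normalization (adjusted p = 0.993) and -0.37 with normexp background correction (adjusted p = 0.0827). It was -0.81 with a fixed and -0.69 with a random slide block. Clic6 differed by -0.16 (SE 0.07, adjusted p = 0.330), and by -0.03 without scaling and in the authors' table. The dimmer probes differed by -0.25 for Clic6 (SE 0.09, unadjusted p = 0.0146, adjusted p = 0.255) and by -0.57 for Folr1 (SE 0.22, unadjusted p = 0.0269, adjusted p = 0.292). Ttr differed by -1.29, and by -0.53 without low drinker pool 1. No gene of the 6 had groups that did not overlap, against 5.61% of probes. Within slide 2, which held 2 early high and 2 low drinker pools, Clic6 differed by 0.04 and Aqp1 by -0.69, with no test, and 3 of the 4 values of Aqp1 were not well above background.

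Late and early high drinkers differed by an adjusted p under 0.05 in 0 of 6 genes and 0% of probes. Clic6 differed, late minus early, by -0.23 (SE 0.08, unadjusted p = 0.0171, adjusted p = 0.340), 1 of 6 against 12.4% of probes, and its groups overlapped, as did those of the other 5, against 22.1% of probes whose groups did not. This difference was -0.07 without scaling and in the authors' table. On slide 3 alone, the 3 late pools differed from early high drinker pool 3 by -0.06 for Clic6. Ttr differed by 0.71, and by -0.01 without early high drinker pool 3, which was not well above background, -0.02 without late high drinker pool 3 and 1.29 without late high drinker pool 1. The dimmer Clic6 probe differed by -0.35 (SE 0.10, unadjusted p = 0.00552, adjusted p = 0.314), with groups that did not overlap.

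**Figure D2:**
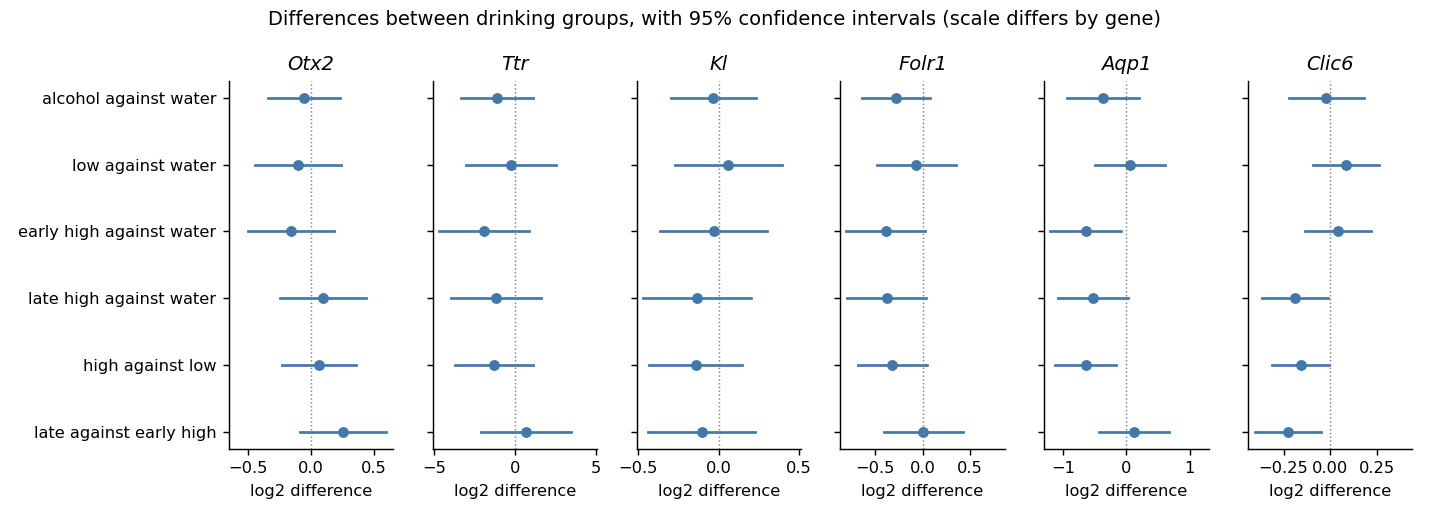
Log2 differences of the 6 genes in the 6 comparisons (rows), each point with its 95% confidence interval from limma, on an x axis that differs by gene. All intervals of Otx2, Ttr, Kl and Folr1 include 0, and those that do not belong to Aqp1 and Clic6, none of which passed the adjusted p of 0.05.

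The 6 genes did not move together as 1 group over the 12 arrays. The Pearson correlation over their 15 pairs had a median of 0.31 and ran from -0.60 (Clic6 with Otx2) to 0.77 (Ttr with Folr1). With values centered on the mean of their slide the median was 0.20. The 10 pairs without Otx2 were all above 0, with a median of 0.49, and 3 of the 5 pairs with Otx2 were below 0, with a median of -0.05. With slide-centered values that order was turned, with medians of 0.19 without and 0.28 with Otx2. After Benjamini-Hochberg adjustment over the 15 pairs, 0 pairs had a permutation p under 0.05.

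Ttr and Folr1 were closest (r = 0.77, rho = 0.78, permutation p = 0.00357 for r and 0.00347 for rho over 12 arrays, two-sided, adjusted p = 0.0535 and 0.0520). Without water pool 1 and low drinker pool 1, the arrays farthest from the median of Ttr, r was 0.61, and with slide-centered values it was 0.67. On slide 1 r was 0.98, on slide 2 it was 0.93 and on slide 3 it was 0.27, each over 4 arrays. Ttr and Kl had r = 0.62 and rho = 0.47 (permutation p = 0.0327 and 0.127, adjusted p = 0.204 and 0.352). That relation fell to 0.27 without water pool 1 and low drinker pool 1, so it rested on those arrays. With slide-centered values r was 0.49, and it was 0.92, -0.12 and -0.74 on slides 1, 2 and 3.

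Clic6 and Otx2 were the lowest pair (r = -0.60, rho = -0.68, permutation p = 0.0411 and 0.0184, adjusted p = 0.204 and 0.138). With slide-centered values r was -0.04, so the relation did not hold within slides. Ttr had r = 0.07 with Otx2 (permutation p = 0.825), 0.22 with Clic6 and 0.46 with Aqp1 (permutation p = 0.487 and 0.138), and the last was -0.04 without the same pair of arrays.

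**Figure D3:**
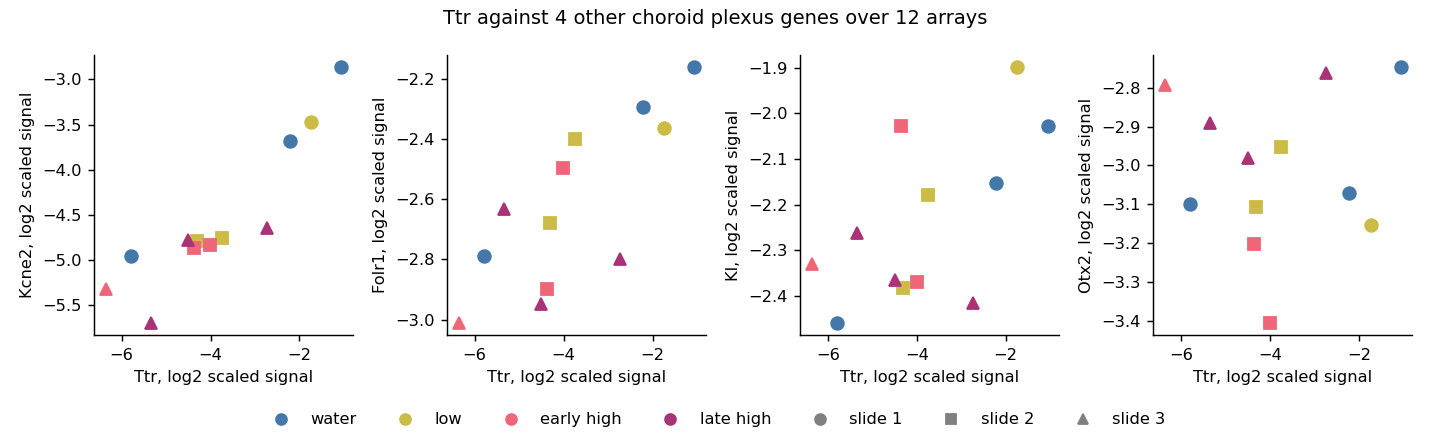
Ttr (x axis) against Kcne2, Folr1, Kl and Otx2 (y axes), in log2 scaled signal, with 1 point for each of 12 arrays, colored by drinking group and shaped by slide. Kcne2 falls along a line with Ttr (r = 0.91), Folr1 does so more loosely (0.77), Kl less (0.62) and Otx2 does not (0.07).

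A further 30 genes known from choroid plexus epithelium were read in the same way. Of these, 29 had a probe, 27 were tested and 22 were well above background on all 12 arrays. None passed the adjusted p for alcohol against water (0% of all probes), 1 of 27 passed the unadjusted p (5.53% of all probes), and their median difference was 0.02 on the log2 scale, beside 0.03 over all probes. The gene at the unadjusted p was Sostdc1, an inhibitor of BMP and Wnt signals, at -0.29 (SE 0.13, unadjusted p = 0.0430, adjusted p = 0.819), and at -0.15 without water pool 1, -0.18 with a random and 0.15 with a fixed slide block. Kcne2, a potassium channel subunit of the apical membrane, was at -0.96 (SE 0.44, adjusted p = 0.819). Its difference was -0.48 without water pool 1, -1.53 without water pool 3, -0.57 with normexp background correction, -0.62 with a random slide block and 0.36 with a fixed one.

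Kcne2 had the widest span of the 22, 7.11-fold. Its log2 level was -2.87, -3.68 and -4.96 in water pools, -3.47, -4.79 and -4.76 in low drinkers, -4.83, -4.87 and -5.32 in early high drinkers, and -5.70, -4.78 and -4.65 in late high drinkers. As for Ttr, the highest 3 arrays were water pool 1, low drinker pool 1 and water pool 2, and the next was late high drinker pool 3. Kcne2 and Ttr had r = 0.91 and rho = 0.93 (permutation p = 2e-05 and 4e-05, two-sided, adjusted p = 0.00012 and 0.00024 over 6 such relations). The correlation was 0.81 without water pool 1 and low drinker pool 1, 0.91 with slide-centered values, and 0.98, 0.69 and 0.76 on slides 1, 2 and 3.

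The next 3 by span were Wfdc2, a secreted protease inhibitor-like protein, at 5.10-fold, Slc13a4, a sulfate transporter, at 4.26-fold and Slc5a5, the iodide transporter, at 2.47-fold. Their correlations with Ttr were 0.35, 0.12 and -0.01 (permutation p = 0.274, 0.697 and 0.963). By rank, rho was 0.55, 0.26 and 0.007 (permutation p = 0.0662, 0.418 and 0.99). The narrowest spans belonged to Slc2a12, a glucose transporter, and Col8a1, a collagen, at 1.17-fold and 1.14-fold, with r = 0.41 and -0.02 (permutation p = 0.183 and 0.947). A wide span was thus not shared with the pattern of Ttr in 3 of those 4 genes.

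Over the 22 genes the median r with Ttr was 0.19, against -0.01 over 26035 probes of other genes that were well above background on all 12 arrays. An r over 0.7 was reached by 2 of the 22, Kcne2 and Ecrg4 (named 1500015O10Rik in the files), against 0.43% of those probes. Ecrg4, which encodes a secreted peptide precursor of the epithelium, had r = 0.83 and rho = 0.82 with Ttr and spanned 2.19-fold. Sostdc1 followed at 0.69, Trpv4, a cation channel, at 0.68 and Car12, a carbonic anhydrase, at 0.67. Prlr, Slco1c1, Cab39l and Car14 lay between -0.23 and 0.01. These values are descriptions over 12 arrays that share 3 slides.

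**Figure D4:**
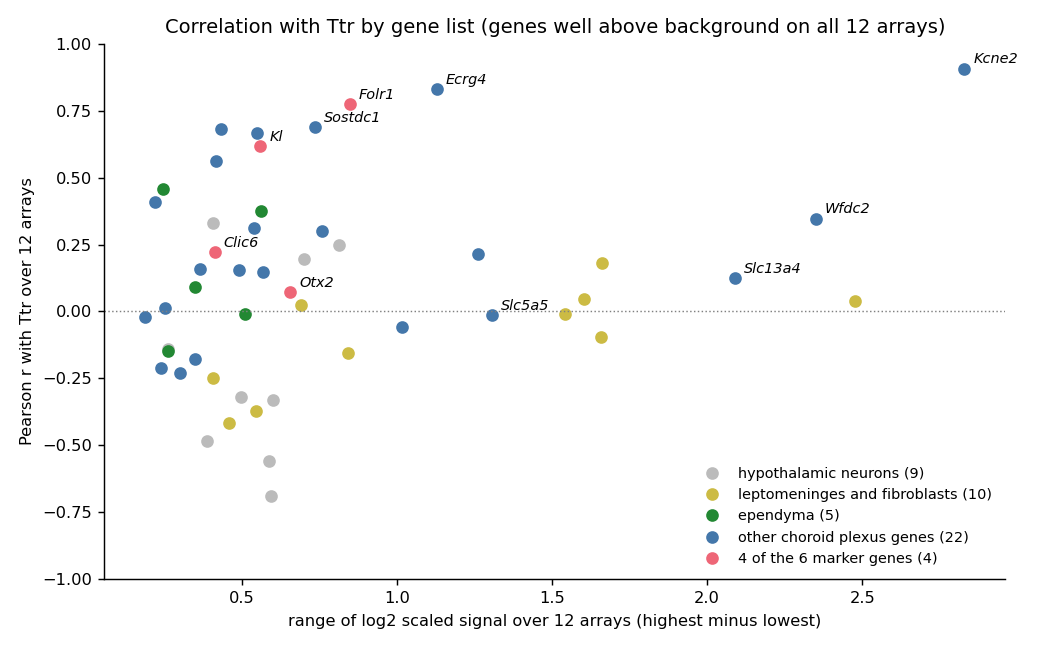
Pearson r with Ttr over 12 arrays (y axis) against the range of log2 scaled signal (x axis) for genes of 5 lists that were well above background on all 12 arrays, with the number of genes in parentheses. Kcne2, Ecrg4 and Folr1 lie above 0.7, while Wfdc2 and Slc13a4 vary widely with an r of 0.35 and 0.12.

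Markers of cells next to the choroid plexus were read beside these values. Sums of scaled signals are given as ranges only, because probes of high signal weigh most in them. Of 5 ependymal genes with a probe, all were well above background on all 12 arrays, 0 had an r with Ttr over 0.7 and the median r was 0.09. The sum of their scaled signals lay between 11.4 and 12.7 in water pools, 12.7 and 13.3 in low drinkers, 11.8 and 13.1 in early high drinkers, and 11.5 and 13.2 in late high drinkers. For the 10 genes of leptomeninges and fibroblasts, all well above background, the median r was -0.05 and 0 passed 0.7, with sums between 57.7 and 92.5 in water pools, 80.1 and 91.7 in low drinkers, 69.6 and 134 in early high drinkers, and 69.5 and 81.8 in late high drinkers. Ptgds, which choroid plexus also makes, was among them.

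Tanycytes, the lining cells of the third ventricle floor, had 6 genes, of which Scn7a was well above background on no array and 4 were on all 12. Their sums lay between 2.13 and 2.31 in water pools and between 2.10 and 2.84 in the drinking groups, and the median r of the 4 genes with Ttr was -0.07. For alcohol against water the unadjusted threshold was passed by 1 of the 6 tanycyte genes and 1 of the 5 ependymal genes, beside 5.53% of all probes. These were the factor Rax, at 0.78 (unadjusted p = 0.00583, adjusted p = 0.819 in limma), and Ccdc153, at 0.13 (unadjusted p = 0.0416, adjusted p = 0.819 in limma). The other tanycyte genes were at -0.30 (Crym), -0.27 (Gpr50), 0.26 (Dio2), 0.17 (Scn7a) and 0.16 (Col23a1). The median r with Ttr was 0.10 over 5 endothelial genes (such as Cldn5), 0.11 over 3 blood genes (Hbb-b1), -0.32 over 9 hypothalamic neuron genes (Hcrt) and -0.10 over 6 thalamic genes (Calb2). Among the neuron genes the lowest were the neuropeptides Agrp (r = -0.69, rho = -0.71, and -0.65 with slide-centered values), Npy (-0.56) and Ghrh (-0.49). Avp (0.33), Oxt (0.25) and Pmch (0.20) lay above 0, at 0.48, 0.53 and 0.55 with slide-centered values. All of these are descriptions over 12 arrays. All 23 genes of these 4 lists were well above background on all 12 arrays, and 0 had an r over 0.7. Of 5 anterior pituitary genes (such as Cga), 3 were well above background on all 12 arrays and had a median r of 0.07, with sums of all 5 between 3.25 and 12.4 in water pools and between 0.911 and 9.40 in the drinking groups. The part of any of these cells in the values of the 6 genes was not tested.

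Genes with the most similar pattern were ranked by their correlation with the mean profile of the 6 genes, each centered and divided by its SD, over 12 arrays. Among 15392 genes with a probe well above background on all of them, Ecrg4 ranked highest (r = 0.93), followed by Rhobtb3 (0.90), Mtfp1 (0.88), Gabra5 (0.87), Pcmt1 (0.86), Kcne2 (0.86), Cenpf (0.86), Ppid (0.85), Nmrk2 (0.85) and Ccbe1 (0.85). The lowest were Tcof1 (-0.92), E130008O17Rik (-0.92) and Rbm28 (-0.91). Ecrg4 and Kcne2 were the only 2 of the first 10 from the choroid plexus list, and they spanned 1.13 and 2.83 on the log2 scale, while 7 of the others spanned under 0.4. Ranked against Ttr alone, Pcmt1 (0.93), Kcne2 (0.91) and C3 (0.85) came first, and Pcmt1, Kcne2 and Ecrg4 were the 3 genes in the first 10 of both. With 12 arrays and this many genes, a high r is reached by many probes, and the ranking is a description.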

How the data were processed

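Hypothalamic RNA of 12 pools of male ICR mice was labeled with Cy3 and hybridized to Agilent mouse whole genome arrays, 1 color per array. The deposited scanner files held a linear signal intensity for every spot, which the authors had corrected for background with Agilent Feature Extraction (10.5.1.1 per the file headers) and had not scaled. A deposited table of intensity per probe was used as an alternative.

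Intensities were log2-transformed, and the 75th percentile over the 43379 non-control spots, which lay between 1512 and 1853 before transformation, was subtracted within each array. Values of non-uniform outlier spots, or with a signal under 2 times its error, were removed, and repeated spots were averaged by probe. Testing alcohol against water needed values in 2 water and 5 alcohol arrays (32376 of 41174 probes), and testing the 4 groups needed 2 values in each (31622). Tests were made with limma 3.58.1 in R 4.3.3 (lmFit, eBayes) with Benjamini-Hochberg adjustment over all probes tested. Correlations had 100000 permutations each. The steps were tested on simulated data. Replicates are pools of different mice, and their number limits the precision.

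The 6 genes and all lists were chosen with earlier results of these data known. A gene was read on its probe with the highest mean over the 12 arrays, with its other probes given as values, and their tests given in the comparisons named with them. Named outside the 6 were the 10 genes most and 3 least like their mean profile, and the first 3 by Ttr alone. The 4 widest and 2 narrowest of the choroid plexus list and genes passing a stated threshold were named too. From each marker list except ependyma, the gene with the highest probe signal was named. Trpv4, Car12, Prlr, Slco1c1, Cab39l, Car14, Crym, Gpr50, Col23a1, Scn7a, Agrp, Npy, Ghrh, Avp, Pmch and Oxt were named after their values were seen. Positions are those of mm9 in the array files. Names in the array files were updated for 25263 probes through RefSeq accessions of GRCm38.p6. Kcnj13, Tmem212 and Crh had no match and were not analyzed here. Alternatives covered background correction, scaling, the authors' table, spot filters, slide and replicate number as blocks, the methods' test, the groups in the fit, each array left out and each other probe.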

Additional observations from a re-analysis of the deposited data

Results flagged for a closer look

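Kcne2 of low drinker pool 1 stood apart from the other alcohol arrays. At -3.47 on the log2 scale it lay above the next of the 9 alcohol arrays, at -4.65, by a gap of 0.53 of their whole range as a fraction, over the 95% critical value of Dixon's test for 9 values. Of 12 genes examined in this way (the 6 marker genes and the 6 named from the choroid plexus list), it was the only one, and chance alone marks about 1 in 20. That array shared slide 1 with the water pools, where Kcne2 lay between -4.96 and -2.87.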

How the results depend on the processing

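The count of the 6 genes with an adjusted p under 0.05 was 0 in all 6 comparisons under every alternative run (the methods' test was run for alcohol against water only), and over those differences of single genes among the 6 that were recomputed the lowest adjusted p was 0.0827. The sign of the estimates was less stable. With slide as a fixed block, where alcohol against water rests on low drinker pool 1 alone, the log2 differences became 1.29 for Ttr, 0.051 for Folr1, 0.31 for Kl, 0.10 for Clic6 and 0.46 for Aqp1, and, added after seeing the data, 0.36 for Kcne2 and 0.15 for Sostdc1. In the same fit Ttr became 1.29 in low, 1.13 in early high and 3.29 in late high drinkers against water and 0.92 in high against low drinkers, and Clic6 0.077 in late high drinkers against water and 0.012 in high against low drinkers. With slide as a random block, Kl became 0.056 and Clic6 0.0095, and with normexp background correction Clic6 became 0.0084. The dimmer probes of Folr1 and Clic6 gave 0.063 and 0.22. With only spots well above background, Ttr in late against early high drinkers went from 0.71 to -0.0096. Leaving out 1 array at a time, the alcohol difference ran from -0.16 to 0.058 for Kl, from -0.043 to 0.0085 for Clic6 and from -0.12 to 0.058 for Otx2, and Ttr ran from -1.62 to 0.75 for low drinkers against water and from -0.016 to 1.29 for late against early high drinkers.

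The median correlation among the 6 genes, 0.31, was 0.48 with normexp background correction, 0.39 without scaling, 0.39 in the authors' table, 0.20 with values centered on the slide, 0.14 on the second probes, and from 0.19 to 0.46 with 1 array left out. The number of genes with an exact permutation p under 0.05 was 0, and from 0 to 1 with 1 array left out (Folr1 without water pool 3, Aqp1 without low drinker pool 1). The cause was not tested. Arrays of the same number did not deviate together (r from -0.09 to 0.18 over 18 pairs), so the numbers do not pair the samples, and with the replicate block the count of the 6 genes was 0 in all 6 comparisons.

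By the methods' t-test for alcohol against water, 0 of the 6 genes and 1688 of 32376 probes had an unadjusted p under 0.05, and 0 probes passed after Benjamini-Hochberg adjustment. Over all probes, the count at an adjusted p under 0.05 ran across the settings with all arrays from 0 to 4 for alcohol, 0 to 78 for low, 0 to 205 for early high and 0 to 24 for late high drinkers against water, 0 to 161 for high against low and 0 to 13 for late against early high drinkers, where the counts reported were 0, 69, 0, 0, 7 and 0. Without scaling the median of all probes moved from 0.0048 to 0.13 in late high drinkers against water.

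The 3 water pools had an SD of 2.47 log2 for Ttr, and the 95% confidence interval of its alcohol difference ran from -3.30 to 1.11. Aqp1 was dim, and 4 of its 12 values were not well above background. Water pools were on 1 slide alone.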
